A study of Mus musculus with 8 samples.

Results

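RNA levels of 8 genes of cholesterol synthesis and its control, Srebf2, Insig1, Hmgcs1, Idi1, Fdft1, Sqle, Lss and Cyp51, were examined in mouse embryonic stem cells (ESCs). The genes were taken by name from a count table of 55401 genes, and all 8 were among the 17532 genes that passed a filter on low counts. RNA, on whose selection labels and protocol disagree, was sequenced in 8 libraries: 2 controls, 3 libraries labelled Zzz3 auxin and 3 labelled Yeats2 auxin. In the auxin groups ZZZ3 or YEATS2, both core members of ATAC, the coactivator complex that contains Ada-two-A, carried an auxin-inducible degron (AID), through which a protein is degraded once auxin is added. Auxin was given at 500 µM for 24 h. The methods of the study describe ESC culture in serum with leukaemia inhibitory factor and 2 kinase inhibitors (2i), without naming these controls. They also give G418 to keep Tir1, the plant protein that recognises the tag, which they place under a PGK promoter. The labels leave the line and the treatment of the controls unstated, and 1 control group serves both lines. The methods of the study write the reference condition as WT, whereas legends of its supplementary data name DMSO for each AID line. The labels also do not say how many clones each line stands for or whether libraries came from separate cultures. Depletion, auxin exposure and line therefore cannot be told apart in the comparisons with control, and p-values measure the spread between libraries, which may be technical.

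Animal cells make cholesterol from acetyl-CoA in a long chain of enzymes. The early steps form the mevalonate arm and end in isoprenoid building blocks, the next ones build squalene and close it to lanosterol, and the last ones turn lanosterol into cholesterol. SREBP2, the product of Srebf2, is a transcription factor held in the membrane of the endoplasmic reticulum. When sterols run low, its escort SCAP carries it to the Golgi, where proteases free the part that enters the nucleus and switches on the genes of the whole chain. INSIG proteins hold SCAP back when sterols are plentiful. Since Srebf2 and Insig1 are themselves SREBP2 targets, transcripts of the enzymes and of these regulators are commonly read together.

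None of the 8 genes passed the test in either comparison with control or in the direct comparison of both depletions (edgeR, 0 of 8 at an adjusted p under 0.05 each time). The shares of all 17532 genes called were 0.753%, 0.445% and 0% for Zzz3 auxin, for Yeats2 auxin and for the direct comparison. The genes did not lie to one side of the controls. Srebf2 and Fdft1 were higher than both controls in all 3 Zzz3 auxin libraries, and Fdft1 in all 6 auxin libraries. Insig1, Cyp51 and Idi1 were lower than both controls in all 6. Of all genes tested, 16.8% were likewise higher in Zzz3 auxin, 10.5% higher in all 6 auxin libraries and 13.2% lower in all 6. The largest difference of the 8 was that of Insig1 in Yeats2 auxin, with a log2 fold change (FC) of -0.46 (standard error, SE, 0.13).

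Libraries held 14315120 to 27884704 reads in genes, and Zzz3 auxin replicate 3 was the shallowest. Naive pluripotency markers summed to 4725 to 5571 CPM (counts scaled to library size) over all libraries. Within this sum Tfcp2l1 alone gave 1713 to 2545 CPM, and Pou5f1 ranged from 275 to 592 CPM between libraries. Markers of 5 other cell types were low (primitive endoderm 5.38 to 8.59, neuroectoderm 37.8 to 76.0, mesendoderm 12.3 to 23.0, trophoblast 38.1 to 47.0 and fibroblast 7.06 to 12.4 CPM in sum, with the fibroblast gene Dcn at 0 reads in all 8 libraries). Zzz3 mRNA was 186 and 182 CPM in the controls, 77.5, 96.9 and 112 with Zzz3 auxin and 189, 183 and 191 with Yeats2 auxin. Yeats2 mRNA was 90.9 and 95.8 CPM in the controls, 133, 119 and 123 with Zzz3 auxin and 77.3, 103 and 43.7 with Yeats2 auxin. The degron acts on the protein, so these mRNA levels do not measure depletion. Libraries differed in how counts followed base composition: the log2 difference between the upper and the lower quartile of genes by GC content was -0.60 in the first control, 0.45 for replicate 3 of Zzz3 auxin, and -0.067 to 0.15 in the other 6. Where removal of a trend on GC content and transcript length from each library moved a gene's log2 fold change against control by over 1.5 times, the value after removal stands beside it.

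Promoter sequences were searched for 4 motifs. RefSeq promoters of GRCm38.p6, running from 250 bases before to 50 bases after the start, were held for 6 of the 8 genes. Sqle and Fdft1 had none, so nothing is said of their promoters. The motifs searched, on both strands, were TCACNCCAC for the sterol regulatory element that SREBP2 binds, CCAAT for NF-Y and GGGCGG for Sp1, its usual partners, and CACGTG, an E-box that SREBPs can also bind. No match overlapped another. CCAAT and GGGCGG were each present in 6 of 6, against 37.4% and 35.7% of the 32851 promoters of the table. Of the 6, TCACNCCAC was matched only in Hmgcs1, first base 137 bases before the start, against 1.24% of all promoters. CACGTG was matched only in Insig1, against 7.15%. Only these exact letters were searched, so forms of an element that vary from them were not counted. A match is a description of letters, and its absence from this window says nothing about binding. Shown are the promoter with a sterol regulatory element match, the one with an E-box match, that of Srebf2, which encodes the factor, and that of Cyp51, one of the enzymes below both controls in all 6 auxin libraries. Each is written 5′ to 3′ on its gene's strand and ends before both the RefSeq and the annotated start, with motif matches in capitals. Matches closer to or past the RefSeq start, among them the CCAAT of Cyp51, therefore fall outside the stretches printed. Hmgcs1 lies at chr13:119690101-119690350 (plus strand), Insig1 at chr5:28071162-28071362 (plus), Srebf2 at chr15:82147019-82147180 (plus) and Cyp51 at chr5:4104747-4104947 (minus).
Hmgcs1: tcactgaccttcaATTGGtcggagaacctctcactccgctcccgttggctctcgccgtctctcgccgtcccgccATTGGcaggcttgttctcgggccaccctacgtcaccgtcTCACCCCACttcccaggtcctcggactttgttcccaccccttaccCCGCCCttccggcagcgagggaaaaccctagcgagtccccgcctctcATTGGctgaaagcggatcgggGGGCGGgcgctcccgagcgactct
Insig1: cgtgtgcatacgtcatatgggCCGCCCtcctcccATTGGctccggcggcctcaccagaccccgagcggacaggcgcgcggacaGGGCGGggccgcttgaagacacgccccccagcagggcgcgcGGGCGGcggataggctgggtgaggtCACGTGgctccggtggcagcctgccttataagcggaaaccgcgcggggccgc
Srebf2: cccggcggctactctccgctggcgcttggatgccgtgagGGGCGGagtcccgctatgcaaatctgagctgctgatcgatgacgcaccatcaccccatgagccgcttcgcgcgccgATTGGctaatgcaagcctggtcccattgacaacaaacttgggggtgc
Cyp51: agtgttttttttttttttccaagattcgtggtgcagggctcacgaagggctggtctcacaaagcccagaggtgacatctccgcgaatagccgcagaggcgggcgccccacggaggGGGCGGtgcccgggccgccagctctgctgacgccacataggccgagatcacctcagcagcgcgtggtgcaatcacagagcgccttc

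Srebf2 (ENSMUSG00000022463, chr15:82147181-82205379, plus strand) encodes SREBP2 itself. It measured 42.6 and 47.0 CPM in the controls, 64.5, 50.5 and 62.6 with Zzz3 auxin and 53.0, 46.6 and 56.3 with Yeats2 auxin. All Zzz3 auxin libraries lay above the controls, and 1 Yeats2 auxin library lay between them. Against control, the log2 FC was 0.40 in Zzz3 auxin (95% interval 0.083 to 0.72, edgeR adjusted p = 0.149) and 0.21 in Yeats2 auxin (-0.10 to 0.53, adjusted p = 0.518). Srebf2 is the most GC-rich of the 8, with 57.1% in its transcripts. After removal of the GC and length trend its log2 FC was 0.066 in Zzz3 auxin and -0.0045 in Yeats2 auxin. An intron of Srebf2 hosts Mir33, the gene of a microRNA that represses cholesterol efflux genes. Mir33 had 0 reads in all libraries, which allows up to 0.109 to 0.201 CPM per library (3 counts, counting error only), and libraries of this kind are not made to capture mature microRNAs.

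Insig1 (ENSMUSG00000045294, chr5:28071363-28078662, plus strand) encodes the protein that retains SCAP and SREBP2 when sterols are abundant. Its level was 32.1 and 35.0 CPM in the controls, 29.5, 26.2 and 28.4 with Zzz3 auxin and 25.0, 24.0 and 23.9 with Yeats2 auxin. The 3 groups did not overlap: every Yeats2 auxin library lay below every Zzz3 auxin library, and these lay below both controls. Differences (log2 FC) were -0.26 in Zzz3 auxin (95% interval -0.54 to 0.018, edgeR adjusted p = 0.262), -0.46 in Yeats2 auxin (-0.74 to -0.19, adjusted p = 0.142) and -0.21 between the depletions (-0.46 to 0.044, adjusted p = 0.779). With DESeq2, the tool used in the study, the Yeats2 auxin difference passed at an adjusted p of 0.0462, the only call among the 8 genes under any setting tried. The GC content of its transcripts was 47.1%, and removal of the GC and length trend left -0.17 in Zzz3 auxin and -0.41 in Yeats2 auxin.

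**Figure D1:**
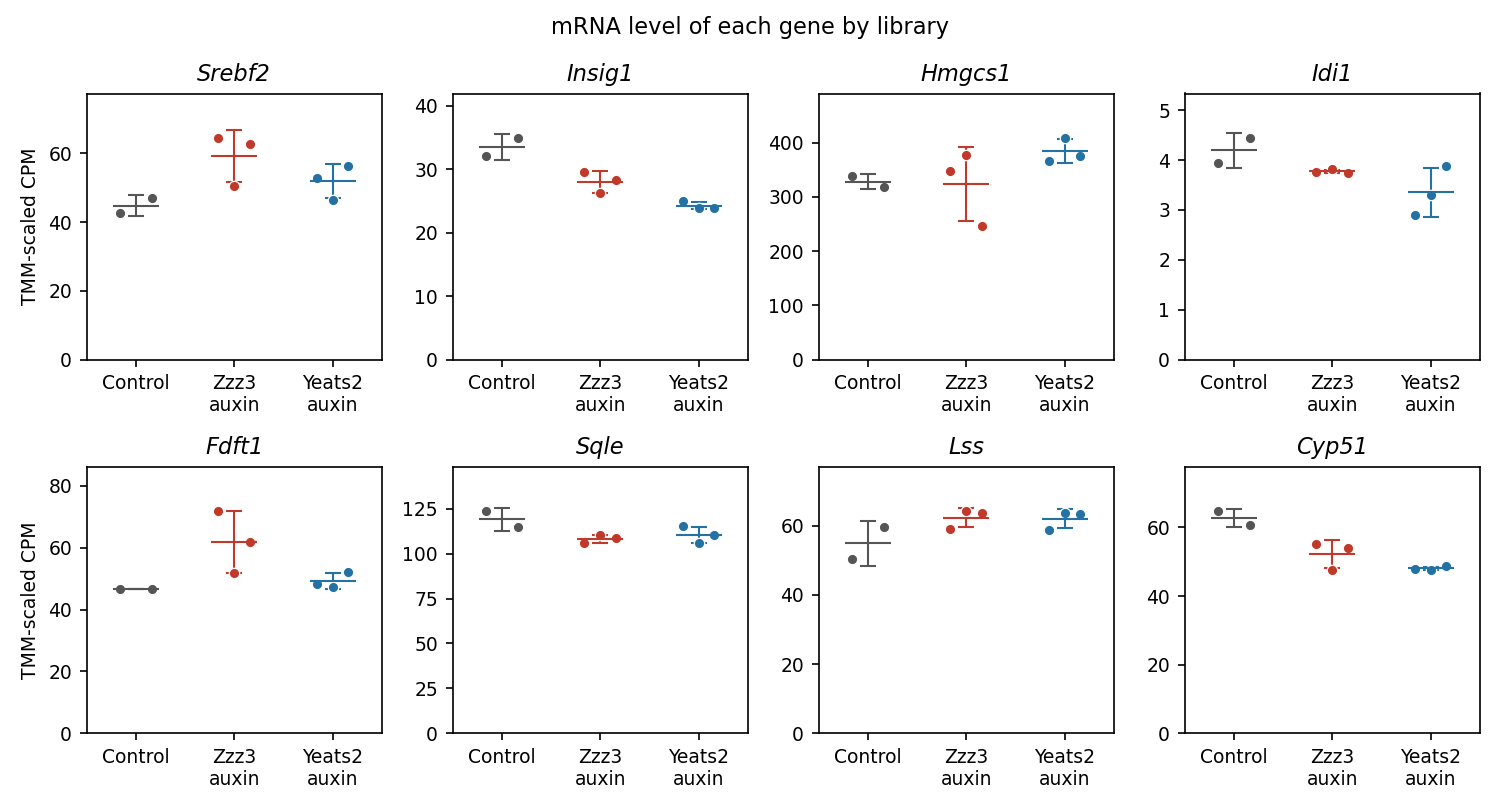
TMM-scaled CPM (y axes, from 0, different for each gene) of the 8 genes in control, Zzz3 auxin and Yeats2 auxin (x axes). Points are libraries (2, 3 and 3), wide bars the mean and whiskers 1 SD. Insig1 lies at 32.1 and 35.0 CPM in the controls and at 23.9 to 29.5 in the 6 auxin libraries, while Hmgcs1 ranges from 246 to 377 CPM within Zzz3 auxin alone.

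In the mevalonate arm, Hmgcs1 (ENSMUSG00000093930, chr13:119690379-119708260, plus strand) makes HMG-CoA, an early intermediate of the chain. It measured 338 and 319 CPM in the controls, 347, 377 and 246 with Zzz3 auxin and 367, 409 and 376 with Yeats2 auxin. The Yeats2 auxin libraries all exceeded the controls, and the Zzz3 auxin libraries lay on both sides of them. On the log2 scale the FC was -0.020 (95% interval -0.37 to 0.33) in Zzz3 auxin and 0.23 (-0.13 to 0.58) in Yeats2 auxin, with edgeR adjusted p = 0.96 and 0.544. The lowest value came from Zzz3 auxin replicate 3, and without that library the log2 FC in Zzz3 auxin was 0.16. The trend removal gave 0.16 as well, and 0.36 in Yeats2 auxin.

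Idi1 (ENSMUSG00000058258, chr13:8885501-8892451, plus strand), the isomerase of the activated isoprene units, was by far the weakest of the 8. Its counts were 56 to 104 reads per library, and its level was 3.95 and 4.45 CPM in the controls, 3.76, 3.81 and 3.75 with Zzz3 auxin and 2.90, 3.29 and 3.88 with Yeats2 auxin. All 6 auxin libraries lay below both controls, though the highest was close to the lower control. Estimates (log2 FC) were -0.15 in Zzz3 auxin (95% interval -0.62 to 0.31, edgeR adjusted p = 0.715) and -0.32 in Yeats2 auxin (-0.78 to 0.14, adjusted p = 0.502). Idi1 had the lowest GC content, 41.1%, and its log2 FC after trend removal was 0.073 in Zzz3 auxin and -0.14 in Yeats2 auxin, so that in Zzz3 auxin the direction turned.

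Fdft1 (ENSMUSG00000021273, chr14:63145150-63179578, minus strand), squalene synthase, joins 2 farnesyl units in the first step that leads only to sterols. It measured 46.7 CPM in both controls, 71.8, 51.7 and 61.8 with Zzz3 auxin and 48.2, 47.2 and 52.1 with Yeats2 auxin. All 6 auxin libraries exceeded the controls, with a wide spread in Zzz3 auxin and a narrow margin in Yeats2 auxin. For Fdft1 the log2 FC came to 0.40 in Zzz3 auxin (95% interval 0.086 to 0.72, edgeR adjusted p = 0.147), 0.075 in Yeats2 auxin (-0.24 to 0.39, adjusted p = 0.84) and -0.33 between the depletions (-0.61 to -0.049, adjusted p = 0.779). After trend removal it was 0.33, -0.00096 and -0.33. Fdft1 shares 774 exonic bases with Ctsb on the opposite strand, which had 2570 to 4915 reads per library. Whether counting used strand is not given in the sources used here.

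Sqle (ENSMUSG00000022351, chr15:59315077-59331192, plus strand), squalene epoxidase, is a rate-limiting enzyme of the chain. Its level was 124 and 115 CPM in the controls, 106, 110.5 and 109 with Zzz3 auxin and 115, 106 and 110.1 with Yeats2 auxin. The Zzz3 auxin libraries lay below the controls and the highest Yeats2 auxin library overlapped them. Sqle had the narrowest intervals of the 8, with a log2 FC of -0.14 in Zzz3 auxin (95% interval -0.37 to 0.094, edgeR adjusted p = 0.481) and -0.11 in Yeats2 auxin (-0.34 to 0.12, adjusted p = 0.666). Differences beyond 0.37 in size on the log2 scale thus lay outside both intervals.

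Lss (ENSMUSG00000033105, chr10:76531588-76557138, plus strand), lanosterol synthase, closes the squalene chain into the first sterol. It measured 50.4 and 59.6 CPM in the controls, 59.1, 64.2 and 63.6 with Zzz3 auxin and 58.9, 63.7 and 63.5 with Yeats2 auxin. In each depletion 1 library was below the higher control. The log2 FC was 0.18 in Zzz3 auxin (95% interval -0.086 to 0.44, edgeR adjusted p = 0.415) and 0.17 in Yeats2 auxin (-0.091 to 0.44, adjusted p = 0.532). Its difference rested on control replicate 1: without that library it was 0.060 and 0.058 in the 2 depletions.

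Cyp51 (ENSMUSG00000001467, chr5:4081145-4104746, minus strand), the demethylase of lanosterol, opens the last stretch to cholesterol. It measured 64.7 and 60.8 CPM in the controls, 55.2, 47.7 and 54.1 with Zzz3 auxin and 47.8, 47.7 and 48.7 with Yeats2 auxin. All 6 auxin libraries lay below both controls. The log2 FC was -0.26 in Zzz3 auxin (95% interval -0.52 to -0.0066, edgeR adjusted p = 0.222) and -0.39 in Yeats2 auxin (-0.64 to -0.13, adjusted p = 0.171). After trend removal it was -0.15 and -0.32. Cyp51 shares 166 exonic bases with Akap9 on the opposite strand, which had 1747 to 4744 reads per library.

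Read together, 2 of the 8 genes (Srebf2 and Fdft1) had an unadjusted p under 0.05 with a higher level in Zzz3 auxin and 1 (Cyp51) with a lower one, beside 11.6% and 10.1% of all genes tested with edgeR, or 21.7% in either direction. In Yeats2 auxin there were 0 higher and 2 lower (Insig1 and Cyp51), beside 7.65% and 6.98%, or 14.6% in either direction. In the direct comparison there were 0 higher and 1 lower (Fdft1), beside 2.44% and 3.81%. At the same threshold after removal of the GC and length trend, Zzz3 auxin had 1 higher (Fdft1) and 0 lower, beside 1585 and 1354 of all 17532 genes. Yeats2 auxin then had 1 higher (Hmgcs1) and 2 lower (Insig1 and Cyp51), beside 1243 and 1072. The direct comparison had 0 higher and 1 lower (Fdft1), beside 579 and 713. With DESeq2, 0, 1 and 0 of the 8 passed, where 7.47%, 3.15% and 0.00909% of all genes it tested did. Groups that did not overlap were also common among all genes. In Zzz3 auxin 2 of the 8 lay above both controls and 4 below, beside 16.8% and 18.9% of all genes, and in Yeats2 auxin 2 lay above and 3 below, beside 19.3% and 21%. Levels below both controls in all 6 auxin libraries, as of Insig1, Cyp51 and Idi1, occurred in 13.2% of all genes, and levels above both, as of Fdft1, in 10.5%. The median log2 FC of the 8 was -0.078 in Zzz3 auxin, -0.017 with Yeats2 auxin and -0.15 between the depletions, where the medians over all genes were 0.0098, -0.0081 and -0.013. Both comparisons with control share the same 2 control libraries.

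**Figure D2:**
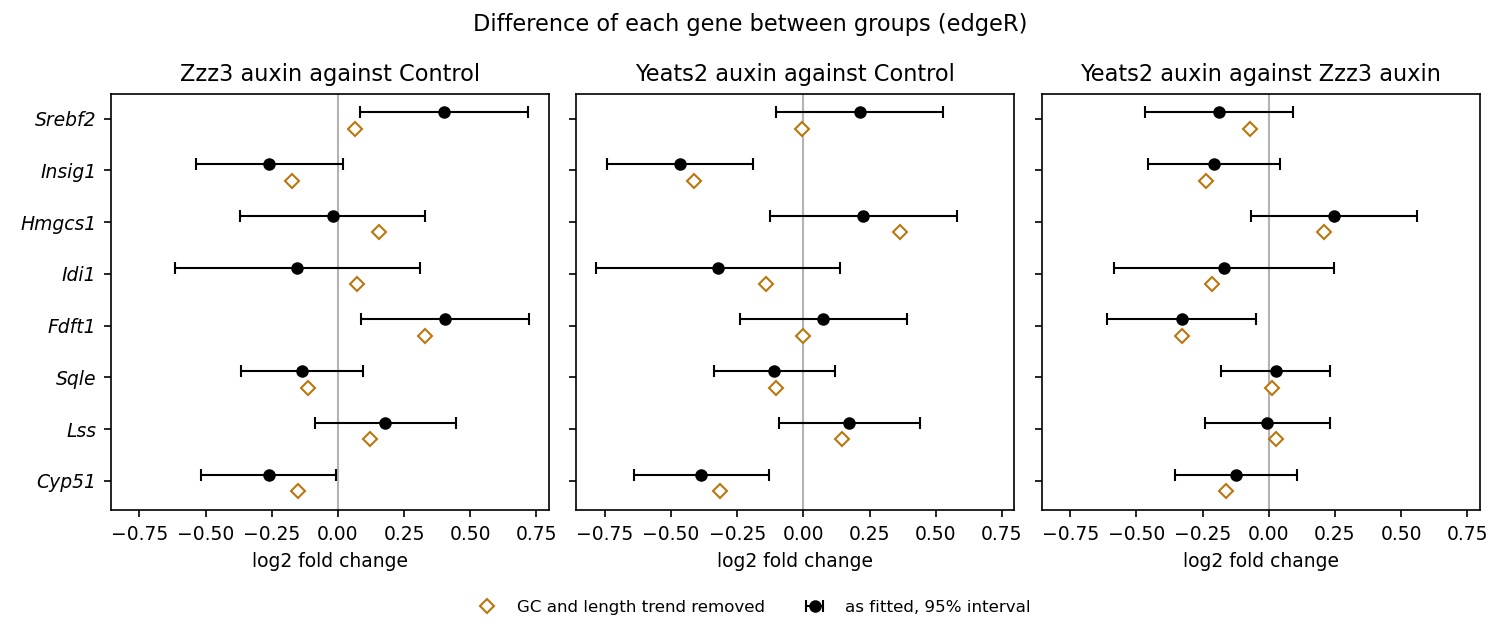
Log2 FC (x axes) of the 8 genes (y axis) in the 3 comparisons. Black points with bars are edgeR estimates with 95% intervals, open diamonds the estimates after removal of the GC and length trend. In the comparisons with control the estimates run from -0.46 for Insig1 in Yeats2 auxin to 0.40 for Srebf2 and Fdft1 in Zzz3 auxin, and the diamond of Srebf2 lies near 0 in both.

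The direct comparison of both depletions sets no control library against another, though the controls enter the filter, scaling and estimate of spread. Line and depleted protein cannot be told apart in it. Of the 8 genes, 6 had a lower and 2 a higher estimate in Yeats2 auxin than in Zzz3 auxin, from -0.33 for Fdft1 to 0.25 for Hmgcs1 (log2 FC). Between them, Insig1 had -0.21, Srebf2 -0.19, Idi1 -0.17, Cyp51 -0.12, Lss -0.0055 and Sqle 0.026, and after trend removal Srebf2 had -0.071. The interval for Hmgcs1 was -0.068 to 0.56. Only Insig1 had no overlap between the groups, being lower, beside 5.25% of all genes that were higher and 5.82% that were lower without overlap. edgeR called 0 of the 17532 genes in this comparison, with 6.25% at an unadjusted p under 0.05, and DESeq2 called 3 genes, none of them among the 8. Intervals of the 8 genes reached from -0.61 to 0.56, and differences smaller than these bounds may have gone undetected with 3 libraries a group.

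Levels per length, in CPM per kilobase of annotated exon (means with SD), spanned a wide range and kept nearly the same order in all groups. Exon length merges all annotated transcripts of a gene (10787 bases for Lss), so the order of different genes is approximate. In the controls (n = 2) Hmgcs1 led with 71.4 ± 2.96, followed by Sqle with 21.5 ± 1.13, Cyp51 with 14.2 ± 0.618, Fdft1 with 11.0, Insig1 with 10.8 ± 0.652, Srebf2 with 6.24 ± 0.439, Lss with 5.10 ± 0.605 and Idi1 with 1.20 ± 0.100. Neighbours in this order did not overlap, apart from Fdft1 and Insig1. In both depletions (n = 3 each) Fdft1 ranked above Cyp51, with 14.6 ± 2.37 against 11.9 ± 0.916 in Zzz3 auxin, where the libraries overlapped, and 11.6 ± 0.614 against 10.9 ± 0.126 in Yeats2 auxin, where they did not. Insig1 and Srebf2 came within reach of each other, with means of 9.07 ± 0.548 against 8.24 ± 1.06 in Zzz3 auxin and of 7.86 ± 0.203 against 7.23 ± 0.689 in Yeats2 auxin, and their libraries overlapped in both depletions.

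The rest of the pathway was read from 3 lists of 39 genes, 38 of them tested: other enzymes of cholesterol synthesis, the machinery that controls SREBPs, and sterol uptake and transport. edgeR called 0 of 38 in each of the 3 comparisons. At an unadjusted p under 0.05 there were 5 higher and 7 lower in Zzz3 auxin, 1 higher and 4 lower in Yeats2 auxin and 1 lower in the direct comparison, where 11.6% and 10.1%, 7.65% and 6.98%, and 3.81% of all genes were. DESeq2 called 3, 1 and 0 of the 38, beside 7.47%, 3.15% and 0.00909% of all genes it tested. The genes named next are the fixed examples Srebf1 and Scap and, chosen after their values were seen, those with an unadjusted p under 0.05 in a comparison with control.

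Among the other enzymes, Mvk and Mvd, kinase and decarboxylase of the mevalonate arm, had log2 FCs of 0.66 and 0.53 in Zzz3 auxin (edgeR adjusted p = 0.223 and 0.211), which were 0.30 and 0.18 after trend removal. The 10 other enzymes after lanosterol mostly had negative estimates, 8 of 10 in Zzz3 auxin and 9 of 10 in Yeats2 auxin, with medians of -0.19 and -0.21, where 8569 and 8954 of all 17532 genes were negative. After trend removal these medians were -0.076 and -0.15. The lowest unadjusted p among them were those of Sc5d, the desaturase near the end of the chain, with -0.46 and -0.49 (adjusted p = 0.104 and 0.147), and Msmo1, a methyl sterol oxidase of the same stretch, with -0.32 in both (adjusted p = 0.149 and 0.239). After trend removal Sc5d had -0.27 and -0.36, and Msmo1 -0.16 and -0.19. Sc5d measured 48.5 and 42.9 CPM in the controls and 30.0 to 36.3 in the 6 auxin libraries, which did not overlap with them, and DESeq2 called it in Zzz3 auxin (adjusted p = 0.0426).

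In the control machinery, Scap, the escort of SREBPs, showed the largest estimate of all 46 genes tested here. It measured 27.7 and 39.2 CPM in the controls, 59.4, 50.2 and 82.3 with Zzz3 auxin and 55.0, 46.6 and 54.2 with Yeats2 auxin, and all 6 auxin libraries exceeded both controls. The log2 FC was 0.93 in Zzz3 auxin (SE 0.21, edgeR adjusted p = 0.0656) and 0.63 with Yeats2 auxin (SE 0.21, adjusted p = 0.205), and after trend removal 0.69 and 0.47. DESeq2 called the first (adjusted p = 0.0022), and without control replicate 1 and Zzz3 auxin replicate 3, the libraries with the strongest GC trends, the values were 0.49 and 0.42. Srebf1, the partner factor that governs fatty acid genes, measured 18.2 and 33.9 CPM in the controls, 42.5, 28.5 and 59.8 with Zzz3 auxin and 29.4, 31.8 and 28.1 with Yeats2 auxin. Its log2 ratios to the control mean, -0.45 and 0.45 in the 2 controls, were further apart than the groups, whose log2 FCs were 0.74 for Zzz3 auxin and 0.19 for Yeats2 auxin (adjusted p = 0.198 and 0.8) and became 0.33 and -0.016 after trend removal. Insig2, the second INSIG gene, had -0.54 and -0.22, and the ligases Rnf139 and Marchf6, which take part in the turnover of sterol-regulated proteins, had -0.33 and -0.34 with Zzz3 auxin, and -0.33 and -0.30 with Yeats2 auxin (adjusted p from 0.113 to 0.581). After trend removal Rnf139 had -0.097 and -0.14 and Marchf6 -0.19 and -0.18.

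In uptake and transport, Soat1, which esterifies cholesterol for storage, measured 37.1 and 33.6 CPM in the controls and 24.1 to 28.0 in the 6 auxin libraries, with log2 FCs of -0.42 and -0.51 (edgeR adjusted p = 0.109 and 0.126), and DESeq2 called it in Yeats2 auxin (adjusted p = 0.0302). Gramd1b, a carrier of cholesterol from the plasma membrane, had 0.59 and 0.33 (adjusted p = 0.0951 and 0.385) and was called by DESeq2 in Zzz3 auxin (adjusted p = 0.0301). Stard4, a sterol carrier of the cytosol, had -0.42 and -0.28 (adjusted p = 0.182 and 0.462), and -0.29 and -0.18 after trend removal.

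**Figure D3:**
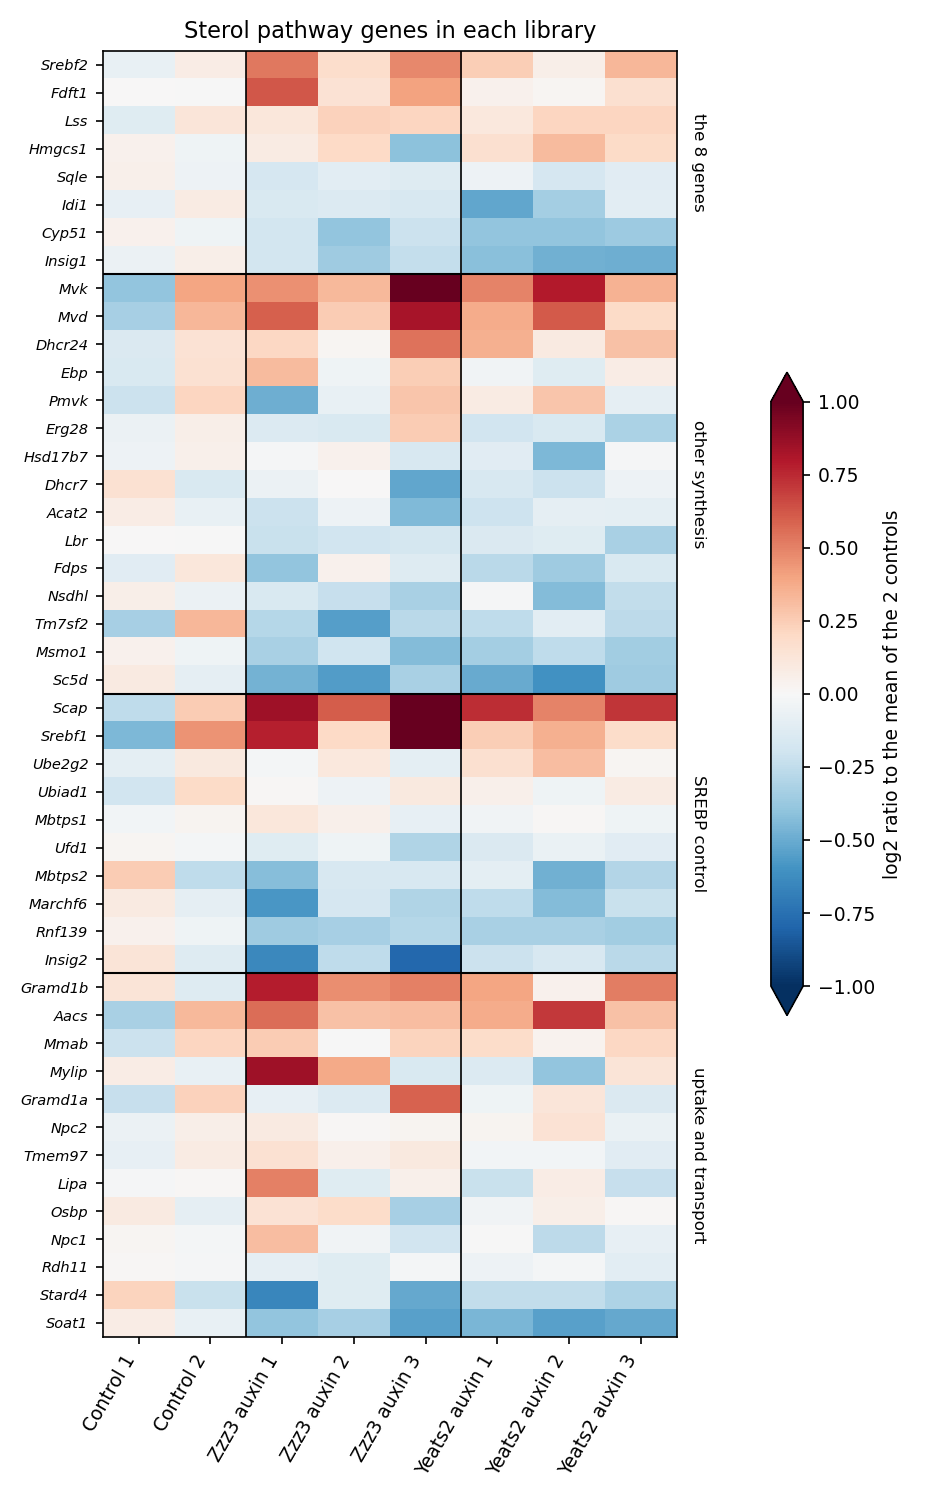
Log2 ratio to the mean of the 2 controls (colour, cut at -1 and 1) of the 8 genes and 38 pathway genes (y axis, by list) in each library (x axis). Scap is above the controls in all 6 auxin libraries and Sc5d and Soat1 below, and the 2 controls differ from each other for Srebf1, Mvk and Mvd.

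Direction followed base composition across these genes. Of the 46 genes tested, 23 had a GC content over 50%, a bound chosen after seeing the data, and 17 of these had a positive log2 FC in Zzz3 auxin against 4 of the 23 others. In Yeats2 auxin the numbers were 15 of 23 and 2 of 23. Over all genes with a GC value, 5810 of 8213 above the bound and 3145 of 9297 others were positive in Zzz3 auxin, and 5436 of 8213 and 3136 of 9297 in Yeats2 auxin, so that the share of positive values below the bound was smaller in the pathway than over all genes. After removal of the trend 12 of 23 and 8 of 23 were positive in Zzz3 auxin, and 8 of 23 and 3 of 23 in Yeats2 auxin. Over all genes the numbers were then 4313 of 8213 and 4618 of 9297 in Zzz3 auxin and 4127 of 8213 and 4567 of 9297 in Yeats2 auxin, larger shares than in the pathway apart from genes over 50% GC in Zzz3 auxin, where they were nearly equal. These differences in share were not tested. The part of the libraries' GC trend in the differences of the 8 genes was not tested beyond this removal.

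**Figure D4:**
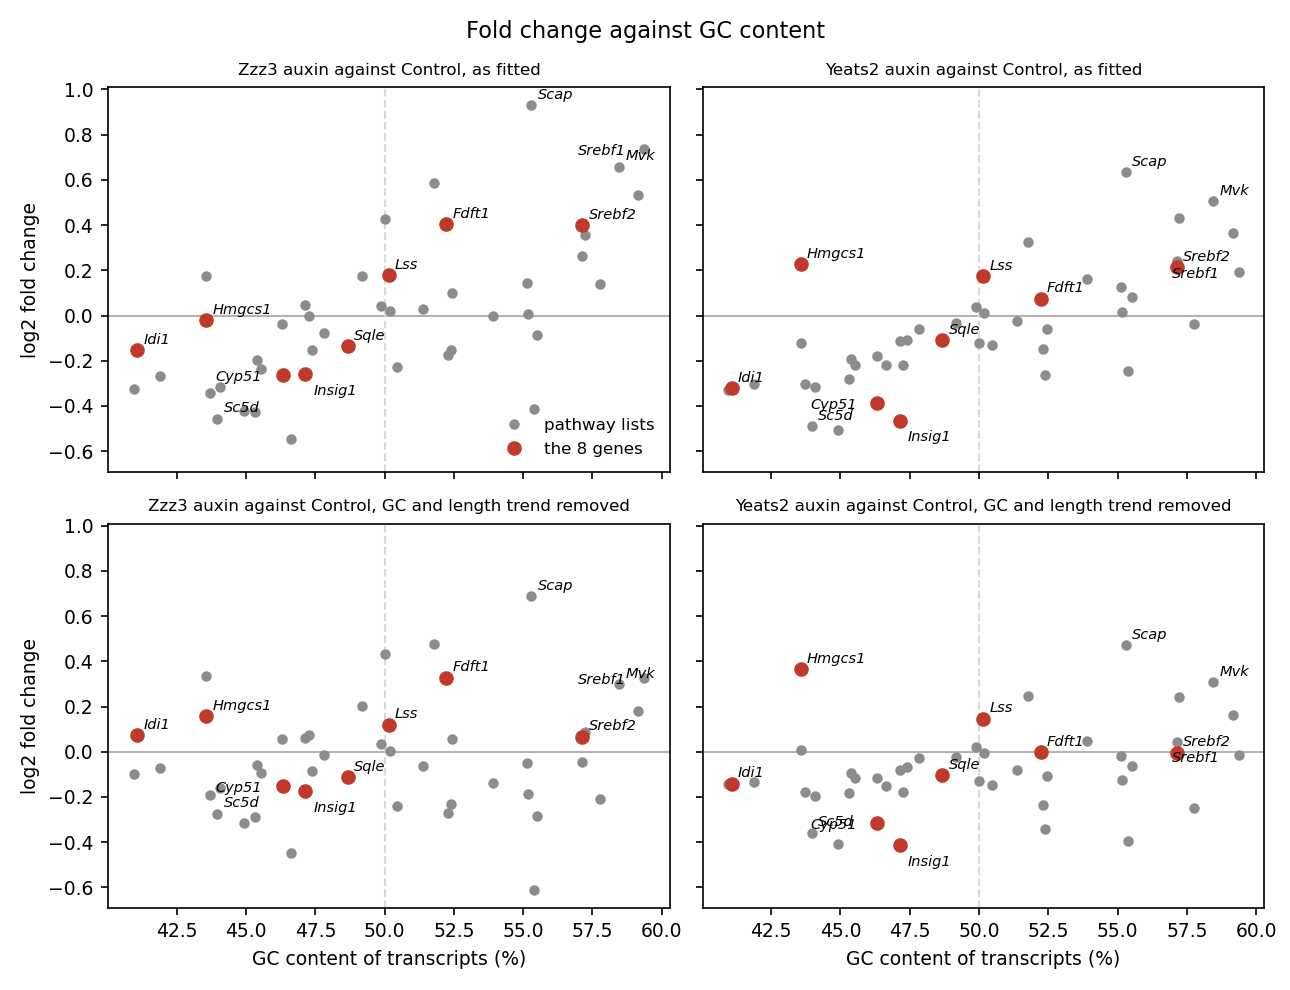
Log2 FC (y axes) against GC content of transcripts (x axes, %) for the 8 genes (red) and the pathway lists (grey), as fitted (upper row) and after removal of the GC and length trend (lower row). The dashed line marks 50%. As fitted, 17 of 23 genes right of the line and 4 of 23 left of it are positive in Zzz3 auxin, and 12 and 8 after removal.

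Genes with the pattern most like the mean of the 8 over the 8 libraries were Nde1, Gpsm2, Gosr1, Tox4 and Kdelr2, by the root mean square difference of log2 CPM relative to the controls (0.0343 to 0.0427, among 8651 genes with at least 10 CPM). None of the nearest 20 belonged to the pathway lists when these were searched in the same way. With 38 pathway genes tested and 8651 genes searched, a count of 0 tells nothing about the pathway. The mean profile of the 8 ran from -0.10 in Yeats2 auxin replicate 1 to 0.081 in Zzz3 auxin replicate 1 on the log2 scale. In the latter library Fdft1 was at 0.62 and Insig1 at -0.18. The mean of such opposite values is nearly flat, so the nearest genes are ones that changed little.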

How the data were processed

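The deposited files hold raw read counts per gene, with 1 file for each library and no normalization. Per the methods of the study, the authors removed adaptors with cutadapt and discarded ribosomal sequences, and mapped to mm10 by STAR 2.5.3a. HTSeq 0.6.1p1 (versions from the submitters' processing notes) then counted unique, unambiguous alignments on Ensembl genes, so overlapping genes can lose reads. Its strand setting is not given in the sources used here. Labels and protocol disagree on RNA selection, with poly(A) RNA in the former and ribodepletion in the latter. GENCODE release 21 of GRCm38, the assembly of mm10, gave positions, exon lengths and GC content for 55141 of 55401 genes. Reads not assigned to a gene, 63.5% to 69.4% of each file's tallies, were left out.

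Counts were analysed in R 4.3.3. Genes were filtered with filterByExpr and TMM-scaled. A model with a mean per group covered all 8 libraries, tested by the robust quasi-likelihood test of edgeR 4.0.16, two-sided, with Benjamini-Hochberg adjustment over the 17532 genes kept. Calls were made at an adjusted p under 0.05. Intervals are 95% from the moderated degrees of freedom. The members and lists were chosen with earlier results of these data known, so no p is adjusted over a list and no list is tested. All 8 genes are named in every comparison, and from the pathway lists any gene called by edgeR (there was none) and the fixed examples. Further pathway genes were named for an unadjusted p under 0.05, after their values were seen. Some genes of these lists are not reported here and were left out of their counts. Alternatives were DESeq2 1.42.0, median-of-ratios scaling, a mean of at least 1 CPM or no filter at all, only the compared groups, the replicate number as a block, a lowess trend (span 0.3) on GC content and length removed from each library, and each library left out. Leaving out control replicate 1 and Zzz3 auxin replicate 3 together was chosen after seeing the data. Per-gene chi-square values between replicates were 4.22 for Yeats2 auxin replicates 1 and 3 and 26 to 61.7 for the other pairs. No library was a copy of another, but those 2 were by far the most alike. Whether they came from separate cultures or preparations was not tested. On simulated data with 200 of 17532 genes changed by a log2 fold of 1, edgeR recovered 68.5% for Zzz3 auxin and 76.0% for Yeats2 auxin against control, and 75.0% and 76.5% in a second draw. That fold is larger than any difference among the 8 genes. Of the edgeR calls in these 2 draws, 7.43% and 6.25% were false for Zzz3 auxin and 7.32% and 6.13% for Yeats2 auxin. With DESeq2 the false shares were 14.4% and 15.0%, and 14.2% and 15.9%. The shares of both tools lay above what a threshold of 0.05 stands for, those of DESeq2 further. Depth makes counting error small for all but Idi1, and the 2 controls limit the precision.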

Additional observations from a re-analysis of the deposited data

How the results depend on the processing

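With edgeR, 0 of the 8 genes were called in any comparison under any alternative run, and with DESeq2 1 was (Insig1 in Yeats2 auxin). The number of all genes called was unstable. For Zzz3 auxin it was 132 and became 1079 with DESeq2, 1542 without a filter, 0 with only the compared groups, 18 without control replicate 1 and Zzz3 auxin replicate 3, and 0 to 841 with 1 library left out (0 without either control, 841 without Zzz3 auxin replicate 2). For Yeats2 auxin it was 78 and became 415, 553, 454 and 8 under the same changes, 144 after removal of the GC and length trend, and 0 to 217 with 1 library left out (0 without control replicate 1 or Yeats2 auxin replicate 3, 217 without Zzz3 auxin replicate 3). For the direct comparison it was 0, and 3 with DESeq2, 117 without a filter, 1 without the 2 libraries together and 0 to 1 with 1 left out. Deviations from the group mean in same-numbered libraries correlated with either sign (r from -0.338 to 0.305). The 2 controls deviate as mirror images of each other, and the GC trend was not removed. This check therefore cannot settle whether the numbers pair libraries. The replicate block gave 42 and 32 calls and 0 of the 8 genes. Pathway calls became 3 with DESeq2 (Sc5d, Scap, Gramd1b), 4 without a filter (Srebf1, Scap, Gramd1b, Mvk) and 0 to 2 with 1 library left out (2 without Zzz3 auxin replicate 2: Insig2, Scap) in Zzz3 auxin, and 1 with DESeq2 (Soat1) and 1 without a filter (Scap) in Yeats2 auxin. The median log2 FC of the 8 genes in Zzz3 auxin became 0.070 after trend removal and -0.14 to 0.015 with 1 library left out.

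Among single genes, the log2 FC changed sign for Hmgcs1 in Zzz3 auxin (0.057 with the replicate block, 0.16 after trend removal, 0.19 without control replicate 1 and Zzz3 auxin replicate 3, and -0.14 to 0.16 with 1 library left out) and for Idi1 there (0.073 after trend removal). In Yeats2 auxin, trend removal gave -0.0045 for Srebf2, -0.00096 for Fdft1 and -0.016 for Srebf1. Without the 2 libraries together Srebf1 was -0.17 and Nus1 0.18, and with 1 library left out Srebf1 ranged from -0.19 (without control replicate 1) to 0.72 and Nus1 from -0.47 to 0.16 (without control replicate 1). Between the depletions, Sqle ranged from -0.0061 (without Yeats2 auxin replicate 1) to 0.055 and Lss from -0.043 to 0.029 with 1 library left out. Lss, at -0.0055, also became 0.00034 with DESeq2, 0.00745 without a filter, 0.026 after trend removal and 0.014 without the 2 libraries together. The cause of these changes was not tested. Of the single-gene values under alternatives, 855 kept direction and side of the threshold, 21 changed sign and 20 passed the threshold only under the alternative.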

Other observations

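Fatty acid genes, which SREBP1 rather than SREBP2 mainly governs, were listed as 12 genes, and edgeR called 0 of them in either depletion, with 3 at an unadjusted p under 0.05 in Zzz3 auxin and 2 in Yeats2 auxin, where 21.7% and 14.6% of all genes were. DESeq2 called 1 in Zzz3 auxin (Fasn) and 0 in Yeats2 auxin, beside 7.47% and 3.15% of all genes it tested. Fasn, fatty acid synthase, measured 284 and 455 CPM in the controls, 709, 451 and 736 with Zzz3 auxin and 519, 466 and 464 with Yeats2 auxin, so the controls were far apart. Its log2 FC was 0.77 in Zzz3 auxin (edgeR adjusted p = 0.1) and 0.36 after removal of the GC and length trend. Acly, which supplies cytosolic acetyl-CoA to both sterols and fatty acids, measured 518 and 619 CPM in the controls and 691 to 757 in the 6 auxin libraries. Its log2 FC was 0.33 in Zzz3 auxin and 0.38 in Yeats2 auxin (edgeR adjusted p = 0.137 and 0.175), and 0.25 and 0.30 after trend removal.

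Of 10 genes of liver X receptors, their targets and oxysterol synthesis 7 were tested, and edgeR called 0 in either depletion, with 2 at an unadjusted p under 0.05 in Zzz3 auxin and 1 in Yeats2 auxin (all genes 21.7% and 14.6%). DESeq2 called 1 in Zzz3 auxin (Abcg1) and 0 in Yeats2 auxin, beside 7.47% and 3.15% of all genes it tested. Abcg1, a cholesterol exporter, measured 7.06 and 6.76 CPM in the controls, 18.0, 10.2 and 11.9 with Zzz3 auxin and 8.63, 12.1 and 10.0 with Yeats2 auxin. It was above both controls in all 6, as were 10.5% of all genes tested. Its log2 FC was 0.96 and 0.57 (edgeR adjusted p = 0.0838 and 0.322), and 0.80 and 0.45 after trend removal. Of 9 genes of the isoprenoid branches of the mevalonate arm, edgeR called 0 in either depletion, with 3 and 1 at an unadjusted p under 0.05, beside the same 21.7% and 14.6%. DESeq2 called 0 in either depletion, beside the same 7.47% and 3.15%. Nus1, a subunit of the dolichol-making prenyltransferase, measured 150 and 96.5 CPM in the controls, 78.0, 95.6 and 47.9 with Zzz3 auxin and 108, 111 and 105 with Yeats2 auxin, with a log2 FC of -0.73 (adjusted p = 0.134) in Zzz3 auxin. The genes named here were chosen after their values were seen.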
